A study of Rattus norvegicus with 9 samples.

Results

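Vascular endothelial growth factor A (Vegfa, ENSRNOG00000019598), its receptors Kdr (ENSRNOG00000046829) and Flt1 (ENSRNOG00000000940), the receptor Tek (ENSRNOG00000008587) with its ligand Angpt2 (ENSRNOG00000016696), and the hypoxia factor Hif1a (ENSRNOG00000008292) were followed through 9 RNA sequencing libraries of rat brain tissue. These 6 genes were taken by Ensembl identifier from the 32623 genes of the count table, and the names came with the identifiers and were not checked against an annotation here. All 6 were abundant enough to be among the 15402 genes tested. Rats were injected with saline, with rt-PA or with Nano-patrol+NIR 4.5 h after a modelling step, and brain tissue was taken 3 days later, with 3 libraries per group. The abbreviation rt-PA stands for the recombinant form of tissue plasminogen activator, an enzyme that turns plasminogen into the clot-dissolving plasmin. The count columns and descriptions of the rt-PA libraries read uk, and this difference from their titles was not resolved. Strain, age, brain region, hemisphere and the model are not described in the labels used here. Of Nano-patrol+NIR these give only the name, and the series title speaks of dissolving clots. All 3 groups went through the modelling step, and animals without it were not analysed here.

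Cells short of oxygen stop degrading the HIF-1 alpha protein, which then pairs with its partner subunit, binds the hypoxia response element and switches on genes that include Vegfa. VEGF-A binds KDR, the main signalling receptor for endothelial growth and permeability, and FLT1, which binds VEGF-A tightly and can act as a decoy. TEK (TIE2) on endothelial cells keeps vessels quiet while angiopoietin-1 is bound, and angiopoietin-2, which activated endothelium releases, competes with it and loosens vessels. After a stroke these proteins are known both for new vessel growth and for early leakage of the blood-brain barrier. HIF-1 alpha is controlled mainly at the protein level, so the messenger RNA measured here is not a measure of its activity.

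Library totals ran from 13059048 to 14992109 counts. In each group 1 library was taken as standing apart from the other 2, namely saline 1, rt-PA 3 and Nano-patrol+NIR 3. CPM are read counts made comparable between libraries by their totals and by TMM scaling factors. Among the tested genes, 18.8% differed more than 2-fold on the log2 CPM scale between saline 1 and the mean of the other 2 saline libraries. It was 24.6% for rt-PA 3, and Nano-patrol+NIR 3 had 12%. This share was not computed for the other libraries, so how unusual these values are cannot be read from them. Results are therefore given with and without these libraries. Levels below are CPM, which do not account for gene length, so levels are compared between groups for 1 gene and not between genes.

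In rt-PA 1 and rt-PA 2, Vegfa, Angpt2 and Hif1a were each well above every saline library, whereas Vegfa in rt-PA 3 was below all of them. None of the 6 genes passed an adjusted p of 0.05 in any of the 3 comparisons when all libraries were used. Without rt-PA 3, Vegfa and Angpt2 passed in edgeR against both other groups. There 13.5% (against saline) and 13.1% (against Nano-patrol+NIR) of all tested genes were called as well. Leaving out a library because it lies far from its group makes the remaining spread too small. No other single omission gave a call among the 6 genes.

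**Figure D1:**
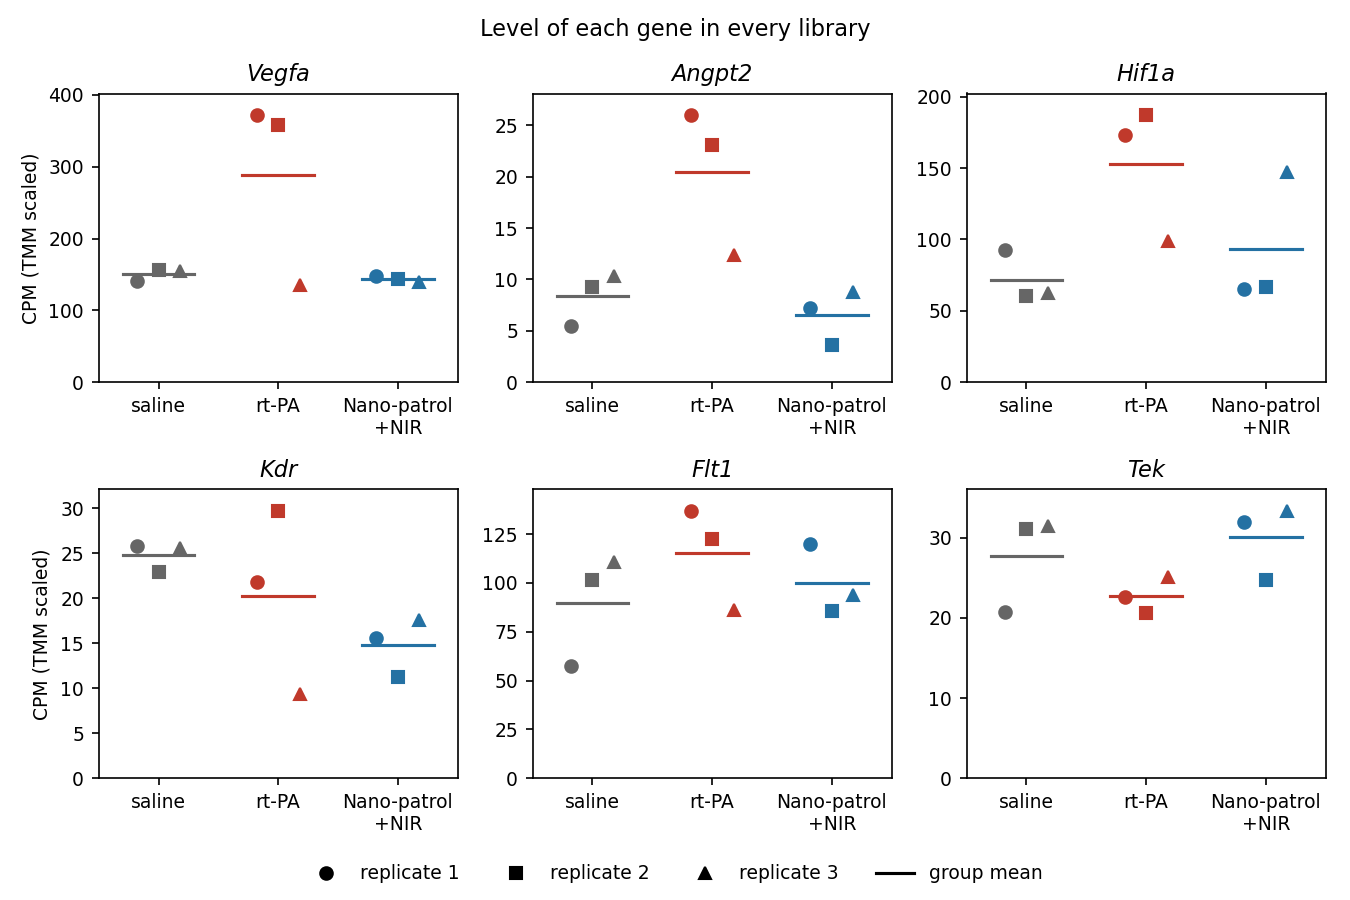
Level of each of the 6 genes in CPM with TMM scaling (vertical axes, from 0) in every library of the 3 groups (horizontal axes), with a symbol for the replicate number and a line for the group mean. Vegfa in rt-PA 1 and 2 lies at 372 and 358 CPM and in the other 7 libraries between 136 and 157 CPM.

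Vegfa, the principal growth and permeability factor for endothelium, had 2072, 2034 and 2182 counts in saline 1, 2 and 3, or 141, 157 and 155 CPM. In rt-PA 1, 2 and 3 it had 372, 358 and 136 CPM, and in Nano-patrol+NIR 1, 2 and 3 it had 148, 144 and 139 CPM. So 2 rt-PA libraries stood far above the rest, and 7 libraries, rt-PA 3 among them, lay close together. The mean was 289 ± 133 CPM after rt-PA, 151 ± 8.86 CPM after saline and 144 ± 4.47 CPM after Nano-patrol+NIR (SD, n = 3 each). The SD of the rt-PA libraries was 45.9% of their mean, against 5.87% with saline and 3.11% with Nano-patrol+NIR.

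Angpt2, the ligand that loosens the contact between endothelium and its supporting cells, had 48 to 337 counts per library. It had 5.43, 9.24 and 10.4 CPM in saline 1, 2 and 3, and 26, 23.1 and 12.4 CPM in rt-PA 1, 2 and 3. Its levels in Nano-patrol+NIR 1, 2 and 3 were 7.24, 3.64 and 8.77 CPM. Every rt-PA library was above every library of the other groups, although rt-PA 3 was only slightly above saline 3. Angpt2 averaged 20.5 ± 7.17 CPM after rt-PA, 8.35 ± 2.59 CPM after saline and 6.55 ± 2.63 CPM after Nano-patrol+NIR (SD, n = 3 each).

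Hif1a, which encodes the oxygen-sensitive subunit of HIF-1, had 92.5, 60.1 and 62.5 CPM in saline 1, 2 and 3. It had 173, 187 and 98.8 CPM in rt-PA 1, 2 and 3, and 65.6, 66.4 and 148 CPM in Nano-patrol+NIR 1, 2 and 3. All rt-PA libraries were above all saline libraries, by a narrow margin between rt-PA 3 and saline 1. Nano-patrol+NIR overlapped both other groups, and Nano-patrol+NIR 3 was 2.23-fold above the mean of the other libraries of its group. On average Hif1a stood at 153 ± 47.5 CPM after rt-PA, 71.7 ± 18.1 CPM after saline and 93.2 ± 47.1 CPM after Nano-patrol+NIR (SD, n = 3 each).

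The receptors showed other patterns. Kdr, which carries most of the growth signal of VEGF-A, had 25.8, 22.9 and 25.6 CPM in saline 1, 2 and 3, and 21.8, 29.7 and 9.32 CPM in rt-PA 1, 2 and 3. In Nano-patrol+NIR 1, 2 and 3 it had 15.5, 11.2 and 17.5 CPM, below every saline library. Saline was even with TMM scaling, rt-PA spread over the whole range, with rt-PA 3 the lowest of all 9 libraries, and Nano-patrol+NIR was low throughout. By library totals alone, Kdr had 28.7, 21.4 and 24 CPM in saline 1, 2 and 3. The group means were 24.8 ± 1.62, 20.3 ± 10.3 and 14.8 ± 3.23 CPM in saline, rt-PA and Nano-patrol+NIR (SD, n = 3 each). Kdr, Flt1 and Tek are made mainly by endothelial cells, and in bulk tissue fewer such cells and less RNA per cell cannot be told apart.

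Flt1, the receptor that can hold VEGF-A back from KDR, had 57.4, 101 and 111 CPM in saline 1, 2 and 3. It had 137, 122 and 86.1 CPM in rt-PA 1, 2 and 3, and 120, 85.7 and 94 CPM in Nano-patrol+NIR 1, 2 and 3. The groups overlapped, and saline 1 was the lowest library. Flt1 averaged 89.8 ± 28.4 CPM after saline, 115 ± 26.1 CPM after rt-PA and 99.9 ± 17.9 CPM after Nano-patrol+NIR (SD, n = 3 each).

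Tek, the angiopoietin receptor, had the smallest SD pooled over the groups. Its levels were 20.8, 31.1 and 31.4 CPM in saline 1, 2 and 3, then 22.5, 20.6 and 25.1 CPM in rt-PA 1, 2 and 3, and 32, 24.7 and 33.3 CPM in Nano-patrol+NIR 1, 2 and 3. Saline 1 lay among the rt-PA libraries, and the other 2 saline libraries above them. The pooled SD within groups was 0.25 log2 units for Tek, below the median of 0.36 over all tested genes. Its means were 27.8 ± 6.07, 22.8 ± 2.25 and 30 ± 4.64 CPM after saline, rt-PA and Nano-patrol+NIR (SD, n = 3 each). For the other genes the pooled SD was 0.39 (Flt1), 0.48 (Vegfa), 0.52 (Hif1a), 0.53 (Kdr) and 0.57 (Angpt2), all above that median. Vegfa still varied less than Tek within saline (SD 5.87% of the mean against 21.8%) and within Nano-patrol+NIR (3.11% against 15.4%). Kdr did so within saline (6.56%).

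The comparison of rt-PA with saline asked how the plasminogen activator group differed from the injected control. Angpt2, Hif1a and Vegfa averaged 2.45-fold, 2.13-fold and 1.91-fold higher in rt-PA in the edgeR fit, and none of these differences passed the threshold against the spread between libraries. Angpt2 had a log2 fold change of 1.29 (SE 0.41, edgeR adjusted p = 0.179), Hif1a 1.09 (SE 0.38, adjusted p = 0.206) and Vegfa 0.94 (SE 0.33, adjusted p = 0.209). Flt1 differed by 0.36 (SE 0.28, edgeR adjusted p = 0.54), Kdr by -0.29 (SE 0.37, adjusted p = 0.727) and Tek by -0.29 (SE 0.21, adjusted p = 0.518). The 95% intervals were -0.28 to 0.99 for Flt1, -1.13 to 0.55 for Kdr and -0.76 to 0.19 for Tek. The intervals of all 3 receptors span 0.

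At an adjusted p under 0.05, 0 of 6 genes were called, as was 0.00649% of all tested genes. At an unadjusted p under 0.05, 3 of 6 were higher in rt-PA (Vegfa, Angpt2 and Hif1a), against 9.05% of all tested genes, and 0 of 6 were lower, against 7.97%. The groups did not overlap for 2 of 6 on the higher side (Angpt2 and Hif1a), against 9.18% of tested genes, and for 0 of 6 on the lower side, against 10.3%. The median log2 fold change was 0.65 over the 6 genes and -0.01 over all tested genes. These genes were chosen with earlier results of these data known, so the counts describe them and do not set them apart from other genes.

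**Figure D2:**
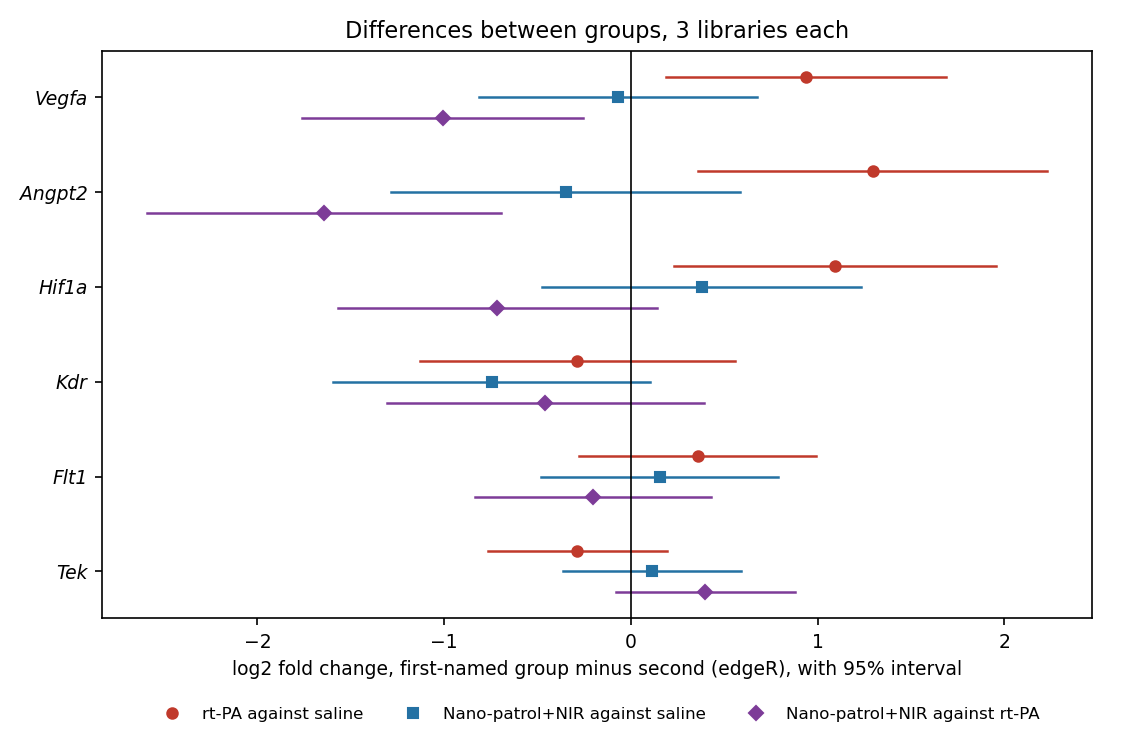
log2 fold change of each gene (horizontal axis) in the 3 comparisons, from the edgeR fit of all 9 libraries; bars are 95% intervals. For rt-PA against saline the points of Vegfa, Angpt2 and Hif1a lie at 0.94, 1.29 and 1.09 with intervals above 0, before any adjustment for the number of genes tested.

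Among the edgeR fits that left out 1 library, calls among the 6 genes appeared only without rt-PA 3. In that fit, the log2 fold change of Vegfa against saline was 1.3 (SE 0.12, edgeR adjusted p = 0.00134) and that of Angpt2 was 1.59 (SE 0.39, adjusted p = 0.0361), while Hif1a stayed short of the threshold at 1.35 (SE 0.39, adjusted p = 0.0578). It called 2 of 6 genes and 13.5% of all tested genes, so many other genes were called in it as well. In rt-PA 3, Vegfa and Kdr were lower than the mean of rt-PA 1 and 2 by 2.69-fold and 2.71-fold, Angpt2 by 1.97-fold and Hif1a by 1.82-fold. Tek was 1.16-fold higher there. Without all 3 libraries that stood apart, edgeR called 4 of 6 genes, with Vegfa, Angpt2 and Hif1a higher and Tek lower in rt-PA, among 43.8% of all tested genes. Libraries left out because they lie far from their group make the remaining spread too small. DESeq2 with all 9 libraries called 1 of 6, Angpt2 (log2 fold change 1.33, SE 0.44, DESeq2 adjusted p = 0.0403), among 7.11% of the genes to which it gave an adjusted p.

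Nano-patrol+NIR was then compared with saline. Vegfa was at nearly the same level in both, and Kdr was the only gene followed here whose groups did not overlap. That does not set Kdr apart, as 6.86% of tested genes were separated on the lower side and 7.62% on the higher side. The mean of Kdr was 14.8 against 24.8 CPM, a log2 fold change of -0.74 (SE 0.37, edgeR adjusted p = 0.919). For this gene, each Nano-patrol+NIR library was below each saline library. Vegfa differed by -0.07 (SE 0.33, edgeR adjusted p = 1), with a 95% interval of -0.81 to 0.67. Angpt2 differed by -0.35 (SE 0.41), Hif1a by 0.38 (SE 0.38), Flt1 by 0.15 (SE 0.28) and Tek by 0.11 (SE 0.21), each with an edgeR adjusted p of 1 after rounding. For Hif1a the sign rested on Nano-patrol+NIR 3, since without that library its log2 fold change was -0.12. For Flt1 and Tek it rested on saline 1, without which the values were -0.07 and -0.04. Angpt2 had a value of -0.62 when Nano-patrol+NIR 3 was left out, against -0.06 when Nano-patrol+NIR 2 was.

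Here 0 of 6 genes were called at an adjusted p under 0.05, against 0.00649% of tested genes. At an unadjusted p under 0.05 there were 0 of 6 on the higher side, where 3.44% of tested genes lay, and 0 of 6 on the lower side, where 2.45% lay. The groups did not overlap for 1 of 6 on the lower side (Kdr), against 6.86% of tested genes, and for 0 of 6 on the higher side, against 7.62%. The median log2 fold change was 0.02 over the 6 genes and -0.01 over all tested genes. DESeq2 and limma-voom without weights also called 0 of 6. With limma-voom and a weight for each library, Kdr passed the threshold (log2 fold change -0.9, SE 0.19, adjusted p = 0.0241), as did 5.9% of all tested genes.

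The direct comparison of Nano-patrol+NIR with rt-PA shares the rt-PA libraries with the first one, so rt-PA 3 bears on both. Both ligands were lower in Nano-patrol+NIR on average, and Angpt2 was below rt-PA in every library. Angpt2 differed by -1.64 log2 units (SE 0.42, edgeR adjusted p = 0.196) and Vegfa by -1.01 (SE 0.33, adjusted p = 0.258). Among all tested genes, Angpt2 ranked 282 and Vegfa 855 by unadjusted p. Hif1a differed by -0.71 (SE 0.38, edgeR adjusted p = 0.439), Kdr by -0.46 (SE 0.37, adjusted p = 0.62), Flt1 by -0.2 (SE 0.28, adjusted p = 0.784) and Tek by 0.4 (SE 0.21, adjusted p = 0.439). The value of Kdr was -0.08 without rt-PA 2 and -0.84 without rt-PA 3. Tek was the 1 gene of the 6 with a higher mean in Nano-patrol+NIR, and its interval was -0.08 to 0.88.

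In this comparison 0 of 6 genes were called at an adjusted p under 0.05, and so was 0% of tested genes. At an unadjusted p under 0.05, 2 of 6 were lower in Nano-patrol+NIR (Vegfa and Angpt2), against 7.86% of tested genes, and 0 of 6 higher, against 5.91%. The groups did not overlap for 1 of 6 on the lower side (Angpt2), against 8.54%, and for 0 of 6 on the higher side, against 8.89%. Over the 6 genes the median log2 fold change was -0.59, and over all tested genes 0.02. Without rt-PA 3, edgeR called 2 of 6, Vegfa (log2 fold change -1.38, SE 0.12, adjusted p = 0.00129) and Angpt2 (-1.94, SE 0.39, adjusted p = 0.019), among 13.1% of tested genes. Without all 3 libraries that stood apart it called 4 of 6, all lower in Nano-patrol+NIR (Vegfa, Angpt2, Hif1a and Kdr), among 40.5% of tested genes. DESeq2 with all libraries called 1 of 6, Angpt2 (-1.67, SE 0.44, DESeq2 adjusted p = 0.00908), among 4.12% of the genes to which it gave an adjusted p.

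A test for any difference among the 3 groups called 0 of 6 genes at an adjusted p under 0.05, against 0.00649% of tested genes. At an unadjusted p under 0.05 it held 3 of 6, namely Angpt2, Vegfa and Hif1a, against 14.7% of tested genes. Their edgeR adjusted p-values were 0.176, 0.253 and 0.328. In order of mean level, Vegfa ran rt-PA, saline, Nano-patrol+NIR, and Angpt2 the same, with saline and Nano-patrol+NIR overlapping for both. The rt-PA and saline libraries overlapped for Vegfa and not for Angpt2. Hif1a and Flt1 ran rt-PA, Nano-patrol+NIR, saline, Kdr ran saline, rt-PA, Nano-patrol+NIR, and Tek ran Nano-patrol+NIR, saline, rt-PA. For these 4 genes neighbours in the order overlapped.

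**Figure D3:**
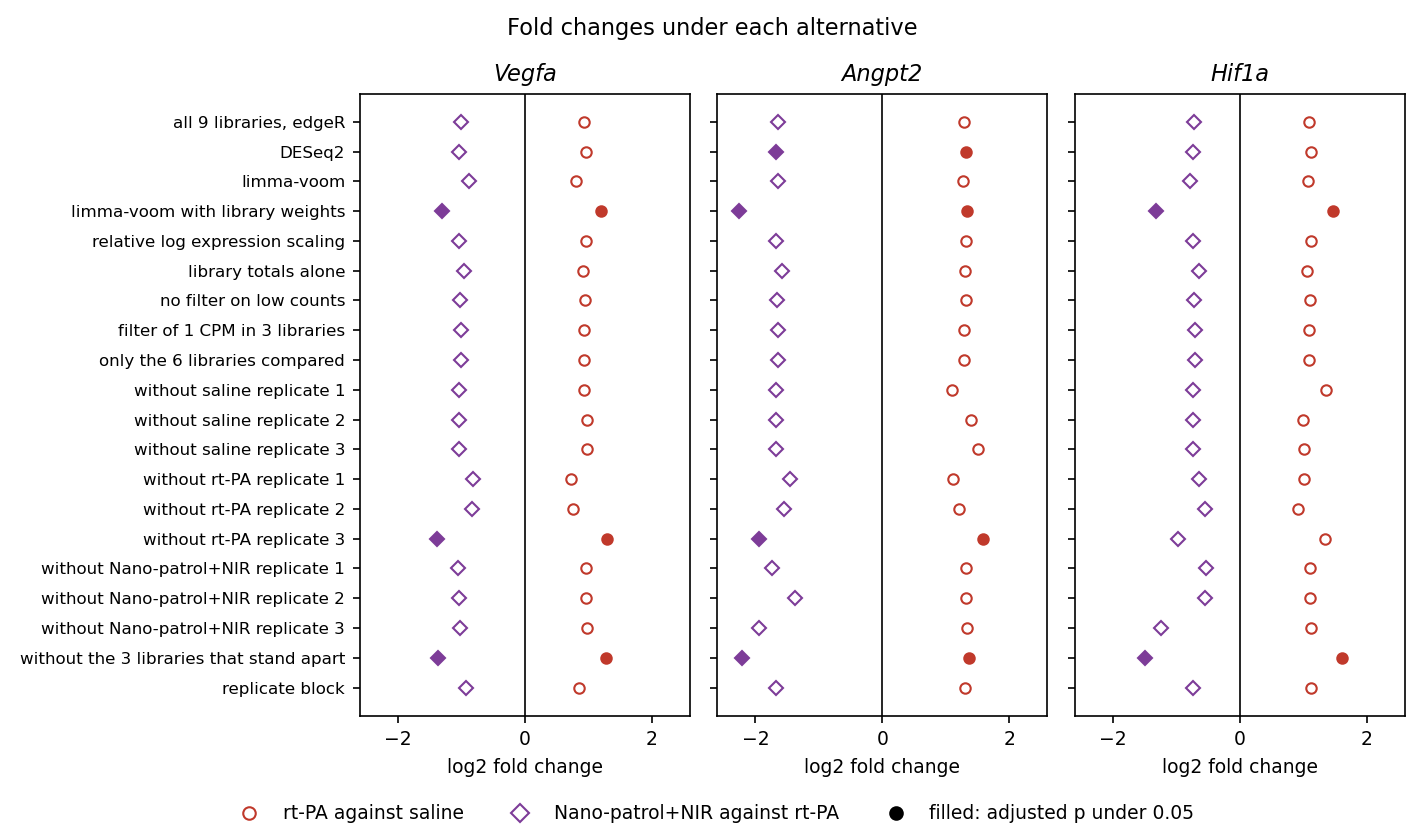
log2 fold changes of Vegfa, Angpt2 and Hif1a (horizontal axes) for rt-PA against saline and Nano-patrol+NIR against rt-PA, under the edgeR fit of all 9 libraries and 19 alternatives (rows); filled symbols have an adjusted p under 0.05. The direction is the same in all rows, while Vegfa is called in 3 and Angpt2 in 4 of the 19 alternatives.

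Ratios of 2 genes within a library do not depend on how library totals are scaled, and are given as a description without a test. They are ratios of counts, not per length, so only their differences between libraries can be read. How many other gene pairs separate the groups as fully was not computed, so a separation below does not set these pairs apart. The ratio of Vegfa to Kdr, the ligand to its main receptor, was 5.45, 6.85 and 6.06 in saline 1, 2 and 3, and 17, 12.1 and 14.6 in rt-PA 1, 2 and 3. In Nano-patrol+NIR 1, 2 and 3 it was 9.52, 12.9 and 7.92. Every library of both treated groups was thus above every saline library. In rt-PA 3 the ratio was as high as in the other rt-PA libraries although Vegfa was low there, Kdr being low as well. In rt-PA 1 and 2 it was Vegfa that was high, and in Nano-patrol+NIR it was Kdr that was low.

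The ratio of Angpt2 to Tek, the loosening ligand to its receptor, was 0.261, 0.297 and 0.33 in saline 1, 2 and 3. It was 1.15, 1.12 and 0.493 in rt-PA 1, 2 and 3, and 0.226, 0.147 and 0.263 in Nano-patrol+NIR 1, 2 and 3. All rt-PA libraries were above all others, rt-PA 3 included, and the highest Nano-patrol+NIR library was just above the lowest saline library. Geometric means were 0.86, 0.295 and 0.206 for rt-PA, saline and Nano-patrol+NIR. Angpt1, the opposing ligand of TEK, was not followed here.

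Flt1 relative to Kdr, the binding receptor to the signalling one, was 2.23, 4.42 and 4.33 in saline 1, 2 and 3, and 7.73, 7.64 and 5.36 in Nano-patrol+NIR 1, 2 and 3. In rt-PA 1, 2 and 3 it was 6.27, 4.12 and 9.24. Nano-patrol+NIR was above saline in every library, with the same low Kdr as in the ratio of Vegfa to Kdr, and rt-PA overlapped both. The ratio of Vegfa to Hif1a overlapped across all groups, at 1.52 to 2.61 in saline, 1.38 to 2.15 in rt-PA and 0.941 to 2.25 in Nano-patrol+NIR. The lowest of these was in Nano-patrol+NIR 3, where Hif1a was high and Vegfa was not. Vegfa relative to Flt1 ran from 1.4 to 2.45 in saline, 1.58 to 2.93 in rt-PA and 1.23 to 1.68 in Nano-patrol+NIR, again with overlap.

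**Figure D4:**
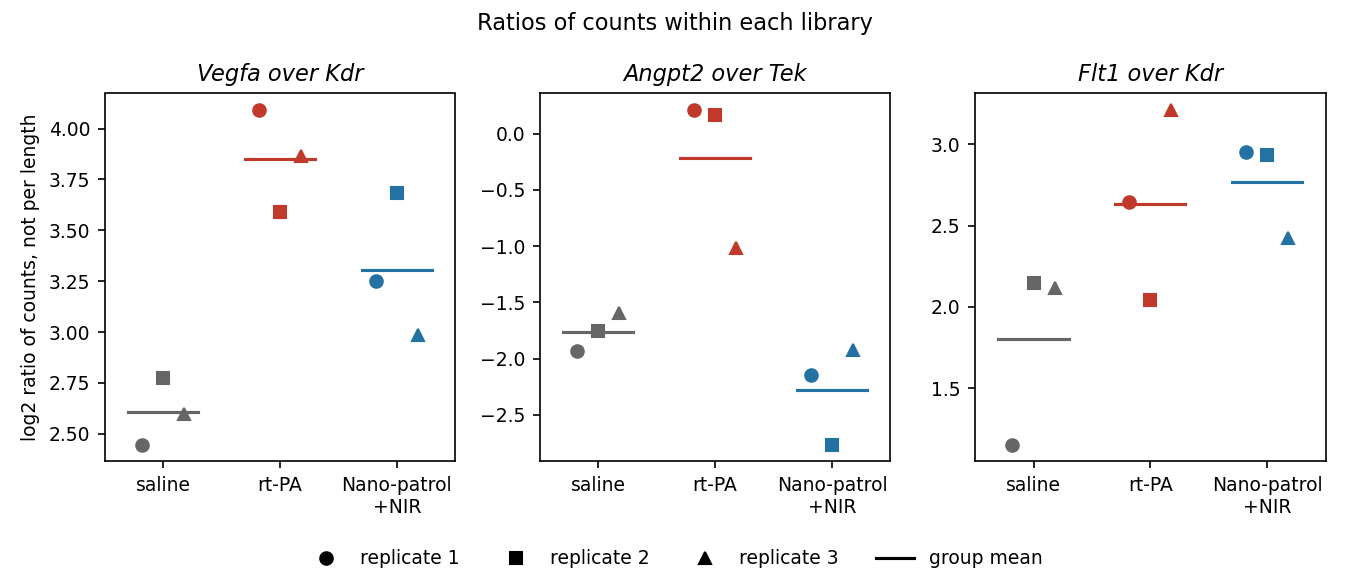
log2 ratio of counts of Vegfa over Kdr, Angpt2 over Tek and Flt1 over Kdr (vertical axes) in every library by group, with lines for group means. Mean log2 values of Vegfa over Kdr are 2.61 (saline), 3.85 (rt-PA) and 3.31 (Nano-patrol+NIR).

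Likeness between the genes was measured as the Pearson r of log2 CPM over the 9 libraries, which share their depth and the libraries that stand apart, so no p is given. Vegfa and Angpt2 were the most alike pair, at r = 0.82. Vegfa ranked 324 among the 15401 other tested genes in likeness to Angpt2, and Angpt2 ranked 1203 in likeness to Vegfa. Vegfa and Hif1a followed at 0.71, Angpt2 and Hif1a at 0.7 and Angpt2 and Flt1 at 0.67. Tek ran against Vegfa (r = -0.54) and Hif1a (-0.5). Kdr was at 0.49 with Vegfa and only at 0.18 with Flt1, the other VEGF-A receptor. With the group means taken out, the order was different. Kdr and Vegfa then reached 0.87 and Flt1 and Angpt2 0.81, while Vegfa and Angpt2 were at 0.6 and Hif1a and Flt1 at -0.09. By these deviations Kdr ranked 994 in likeness to Vegfa, and Vegfa 536 in likeness to Kdr. In rt-PA 3 Vegfa and Kdr were both low, by 2.69-fold and 2.71-fold against the mean of rt-PA 1 and 2. The value of r without that library was not computed.

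Promoter sequences were searched for the hypoxia response element near the starts of the genes, some of which were high together in rt-PA 1 and 2. The RefSeq promoter table of the rat assembly GRCr8 held 4 of the 6 genes (Vegfa with 2 starts, Kdr, Flt1 and Hif1a). Angpt2, which was high in those libraries too, was not among them, so its promoter could not be searched. The 250 bases before each start were searched on both strands for the core of the element, ACGTG or GCGTG. Vegfa and Hif1a are shown because both were high in those libraries. Each lies on the plus strand and is written 5′ to 3′, with matches on either strand in capitals. Vegfa lies at chr9:22452604-22452853 and Hif1a at chr6:98359648-98359897.
Vegfa: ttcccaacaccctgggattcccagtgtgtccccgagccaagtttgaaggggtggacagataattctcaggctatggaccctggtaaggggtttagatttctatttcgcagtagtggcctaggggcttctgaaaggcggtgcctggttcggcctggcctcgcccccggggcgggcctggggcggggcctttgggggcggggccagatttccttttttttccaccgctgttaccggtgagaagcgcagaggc
Hif1a: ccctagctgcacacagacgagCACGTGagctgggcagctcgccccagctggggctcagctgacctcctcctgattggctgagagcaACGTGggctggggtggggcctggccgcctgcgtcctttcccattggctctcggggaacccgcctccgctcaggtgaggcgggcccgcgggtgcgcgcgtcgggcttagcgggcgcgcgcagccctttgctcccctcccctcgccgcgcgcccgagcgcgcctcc

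Neither Vegfa window held a match, a count of 0 in each. The Hif1a window held 3, of which 2 overlap on opposite strands in the palindrome CACGTG, which is also the E-box read by other factors. Within these windows Vegfa and Hif1a thus did not share a match. Kdr held 2 matches and Flt1 1, all GCGTG. Of all 33469 windows of this length in the table, 36.7% held at least 1 match and 16% at least 2, so such matches are common. A match is a run of letters and not a binding site, and the absence of one says nothing of sites further away.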

How the data were processed

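RNA was taken from rat brain tissue with Trizol, and poly(A) RNA was made into libraries, per the labels' protocols. Per the submitters' processing notes the tools included StringTie 1.3.1, HISAT2, Bowtie2 2.2.8 and fastp 0.18.0, with no roles stated. How reads were counted, whether by strand, and on which genome build and annotation is not given in the sources used here, so reads of overlapping or antisense genes cannot be told apart. The authors deposited whole-number read counts per Ensembl gene, not normalized. Groups and replicate numbers came from titles, and the uk columns were matched to rt-PA through the descriptions. Whether the libraries are from different animals is not stated in the labels, and the p-values reflect only how far these libraries spread, part of which may be technical.

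Counts were fitted in R 4.3.3 with edgeR 4.0.16 (robust quasi-likelihood F test, filterByExpr, TMM scaling, 1 mean per group, 6 residual degrees of freedom), and p-values were adjusted by Benjamini-Hochberg over all 15402 tested genes. Each standard error was obtained from the log2 fold change and its F statistic. log2 CPM used a prior count of 2. An exact two-sided permutation test was not run, as 0.1 is the smallest p that 3 against 3 libraries allow. The fits were tested on simulated data. Alternatives were DESeq2 1.42.0, limma-voom in limma 3.58.1 with and without library weights, other scalings and filters, libraries left out and the replicate number as a block. All 6 genes are named in each comparison. The genes and lists were chosen with earlier results of these data known. Lists of further pathway genes and cell type markers, written as symbols, were not tested, because the RefSeq table pairs 0 of its 47357 genes with an Ensembl identifier. The tissue was not checked against markers for the same reason.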

Additional observations from a re-analysis of the deposited data

How the results depend on the processing

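Among the 6 genes, edgeR with all libraries called 0 in rt-PA against saline, 0 in Nano-patrol+NIR against saline, 0 between both treatments and 0 in the test of any difference, and further counts follow this order. The count was 0 throughout with limma-voom, with library totals or relative log expression as the scaling, with a 1 CPM minimum in 3 libraries and with no filter, and for the pairwise comparisons also in fits of the 6 libraries concerned. DESeq2 gave 1, 0, 1 and 1, each time Angpt2, among 7.11%, 0.867%, 4.12% and 7.16% of the genes to which it gave an adjusted p. limma-voom with library weights gave 4, 1, 4 and 5, among 45.2%, 5.9%, 39.1% and 49.5% of tested genes. It gave the libraries that stand apart the lowest weights, which can make the remaining spread too small. Without the 3 libraries that stand apart the numbers were 4, 0, 4 and 4, among 43.8%, 3.27%, 40.5% and 45.3%. Fits that each lacked 1 library gave 0 to 2, 0, 0 to 2 and 0 to 2, and the calls came only without rt-PA 3, where 13.5%, 0.223%, 13.1% and 12.1% of tested genes were called. For these shifts the cause was not tested.

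Of 342 fold changes under alternatives, 310 kept direction and side of the threshold, 23 kept direction and passed it, and 9 turned. The turned values belong to differences that were not called, which could not be otherwise, as edgeR with all libraries called none. For Kdr in rt-PA against saline (-0.29), leaving out single libraries gave -0.667 to 0.0827, and leaving out the 3 that stand apart gave 0.137. For Nano-patrol+NIR against saline, Flt1 (0.15) gave -0.0891 with library weights, -0.037 without the 3 libraries and -0.0727 to 0.324 without single ones. Tek (0.11) gave -0.142, -0.134 and -0.0445 to 0.236. Hif1a (0.38) gave -0.123 to 0.622 without single libraries.

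With the replicate number as a block, 0, 0, 0 and 0 of the 6 genes were called, and the log2 fold change of Angpt2 against saline in rt-PA was 1.31 (edgeR adjusted p = 0.289). Deviations of same-numbered libraries correlated at -0.36 to 0.28, over 0.1 in 5 of 9 pairs, among them every pair of replicate 2. Differently numbered libraries were not compared, so these values cannot tell whether the numbers mark pairs. The block is therefore given only as an alternative. Depth limits these genes little, with at least 48 counts in every library, beside the spread between libraries.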
